A study of Arabidopsis thaliana with 12 samples.

Results

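The 112 Arabidopsis thaliana genes described here were chosen by their transcript levels and carry no name but a locus tag in the array annotation. On lincomycin their mean level in gun1-101 seedlings was at least 7 log2 units, which was at least 1.2 log2 units above untreated gun1-101, while the lincomycin and control means of Col-0 lay within 0.5 log2 units of each other. They were 112 of 14745 genes with a locus tag only, and of 16550 genes tested in all. A further 4 genes (AT1G52560, AT1G54050, AT1G59860 and AT2G19310) had been left out by name, of which only AT1G59860 met the 3 numbers. RefSeq (TAIR10.1) held 111 of the 112 by gene identifier, each as a protein-coding gene, and AT1G16515 was not matched. A synonym was listed there for AT1G78790, MHF2. The only other member with a role given here is AT1G07400, from a hand-written list.

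RNA was taken from whole seedlings of Col-0, the wild type, and of the mutant gun1-101, grown with 0.5 mM lincomycin in the plates or without it, in 3 arrays per group labelled as biological replicates. All groups shared the same growth. Seeds were kept for 2 days at 4 °C, given 8 h of light, then 5 days of darkness and 2 days of continuous light, and seedlings were 7 days old at harvest. In such bulk samples fewer cells of a type and less RNA per cell cannot be told apart.

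Lincomycin is an antibiotic that blocks translation on the ribosomes of plastids. GUN1 is a pentatricopeptide repeat protein of the chloroplast, and plants without it fail to shut down many nuclear genes of photosynthesis when plastid gene expression is impaired. This dependence of nuclear transcription on the state of the plastid is called retrograde signalling. The genes described here were selected for another pattern, a higher level on the drug in the mutant with little net difference in the wild type.

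The choice used all 12 arrays, so the gun1-101 and Col-0 lincomycin differences of the members are descriptions with no test. The rule was met by 0.766% of the locus-tag genes, counting AT1G59860, and by 1.05% of the 1805 genes with a symbol or another name. Of the probe sets without a listed gene, 0.614% of the 13844 that follow the first listed gene met it, and 0.113% of the 7083 before it. The 19 named genes that met the same numbers included ZAT7, a zinc finger protein, COR15A, a cold-regulated protein of the plastid, the sugar transporter gene SWEET1 and the autophagy genes ATG8G and ATG8H.

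Over all genes, only the first Col-0 control correlated most closely with an array of another group, gun1-101 control replicate 1 (0.992). Its mean correlation with both other arrays of its own group was 0.979. The third Col-0 lincomycin array had the lowest such mean of its group (0.9855), and its closest array was Col-0 lincomycin replicate 2 (0.986). That mean was not below those of Col-0 control replicates 2 (0.9845) and 3 (0.9851), so over all genes it did not stand apart. In the members both the first Col-0 control and the third Col-0 lincomycin array differed from the rest of their groups. Their mean level was 7.26, 8.14 and 8.03 log2 units in Col-0 control replicates 1 to 3 and 7.64, 7.58 and 8.34 in the Col-0 lincomycin arrays. In gun1-101 it was 7.31, 7.25 and 7.22 in the controls and 8.76, 8.74 and 8.68 on lincomycin. In these means each mutant group was tight, and the rule itself sets the mutant groups apart. In Col-0 the first control lay with the untreated mutant and the third lincomycin array lay above both other lincomycin arrays. The mean over all genes tested lay between 6.46 and 6.49 on every array. A second measure moved the opposite way. The median of the 7083 probe sets at the head of the table, before any with a listed gene, was 5.37, 4.50 and 4.50 over the Col-0 controls and 5.07, 5.14 and 4.72 over the Col-0 lincomycin arrays. It was 5.10, 5.02 and 4.88 in untreated gun1-101 and 4.71, 4.54 and 4.81 in gun1-101 on lincomycin. The arrays with low member levels were mostly those with a high median of these probe sets, and values with this measure as a covariate are given with the Col-0 and gun1-101 differences.

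**Figure D1:**
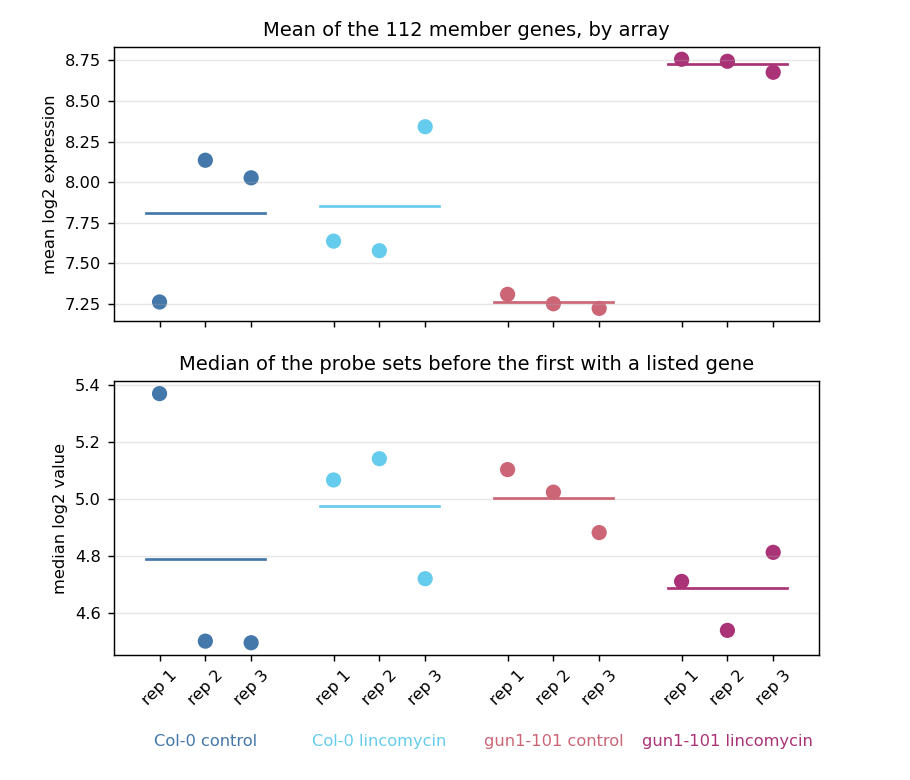
Mean log2 expression of the 112 members on each of the 12 arrays, and the median log2 value of the 7083 probe sets at the head of the table, before any with a listed gene, with 1 point per array and a line at each group mean. The members are low in Col-0 control replicate 1 (7.26) and high in Col-0 lincomycin replicate 3 (8.34), and the leading probe sets are high on the first of these (5.37) and low on the second (4.72).

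The labelled tissue was checked against marker genes. Of the leaf and chloroplast markers 4 of 12 were measured, all antenna proteins of the photosystems, and their summed level was 12.8 to 13.0 log2 units in Col-0 controls, 9.45 to 10.1 in Col-0 on lincomycin, 12.5 to 12.6 in gun1-101 controls and 11.95 to 12.4 in gun1-101 on lincomycin. The 3 measured of 13 root markers summed to 12.2 to 12.5 log2 units in every group, set by PYK10, a root beta-glucosidase. The 3 measured of 15 seed markers (PAP85, M17 and ICL) summed to 7.31 to 8.76 in Col-0 controls, 9.48 to 10.5 in Col-0 on lincomycin, 9.64 to 9.92 in gun1-101 controls and 10.3 to 10.7 in gun1-101 on lincomycin. Leaf and root markers were thus present in all groups, with the leaf markers low in Col-0 on lincomycin, and the seed markers were lowest in the untreated wild type. No marker is at 0 on this scale. The part of these levels in the members' differences was not tested.

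Across the members, the gun1-101 difference between lincomycin and control ran from 1.202 to 2.93 log2 units, with quartiles of 1.27 and 1.496 and a median of 1.35 (a 2.54-fold level), beside -0.06 over all genes tested. It was at least 2 in 7 members, at least 1.5 in 28 and under 1.5 in 84. Most members thus lay close to the threshold. Levels in gun1-101 on lincomycin ran from 7.02 to 11.63, with a median of 8.67. By limma's adjusted p, 104 of the 112 were called higher in gun1-101 on lincomycin, where 10.9% of all genes tested were. The rule used this contrast, so nothing is read from that count.

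The largest gun1-101 difference was that of AT4G12490. Its 3 levels were 6.80, 4.27 and 5.17 log2 units in untreated gun1-101 and 8.02, 7.62 and 9.41 on lincomycin, against 5.00, 4.42 and 4.61 in Col-0 controls and 4.91, 3.34 and 4.99 in Col-0 on lincomycin. All gun1-101 lincomycin arrays were above the other 9, and the difference was 2.93 (SE 0.63). AT4G08555 read 5.78, 5.66 and 4.37 in untreated gun1-101 and 8.21, 8.57 and 7.68 on lincomycin, with 4.52, 6.32 and 5.63 in Col-0 controls and 5.61, 5.50 and 6.48 in Col-0 on lincomycin. Its 9 other arrays shared 1 range well below the gun1-101 lincomycin arrays, and the difference was 2.88 (SE 0.47).

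AT3G46080 read 6.65, 6.52 and 7.40 in untreated gun1-101 and 9.29, 10.67 and 8.91 on lincomycin, with 5.92, 6.42 and 7.43 in Col-0 controls and 6.11, 7.49 and 7.57 in Col-0 on lincomycin. Again no other array reached the gun1-101 lincomycin arrays, and the difference was 2.77 (SE 0.52). In the RefSeq order 1 protein-coding gene lies between it and ZAT7. ZAT7 itself read 3.12, 3.45 and 6.16 in untreated gun1-101 and 7.14, 9.25 and 6.62 on lincomycin, and 3.09, 6.40, 6.37, 3.94, 5.19 and 6.30 over the Col-0 arrays in the same order as above. ZAT7 was lowest on the first array in 3 of the 4 groups, and AT3G46080 in both Col-0 groups. AT1G07400, which is on the hand-written list of small heat shock genes, read 6.43, 6.05 and 6.83 in untreated gun1-101 and 7.83, 9.92 and 9.26 on lincomycin, with 5.55, 5.36 and 6.06 in Col-0 controls and 6.02, 5.94 and 6.31 in Col-0 on lincomycin. All gun1-101 lincomycin arrays were above the rest, with a difference of 2.57 (SE 0.42).

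For AT2G31945 the levels were 5.37, 5.10 and 4.96 in untreated gun1-101, 7.35, 7.90 and 7.01 on lincomycin, 5.10, 6.34 and 5.66 in Col-0 controls and 5.55, 6.21 and 6.60 in Col-0 on lincomycin. The gun1-101 lincomycin arrays were again the highest, with a difference of 2.28 (SE 0.33). AT2G32200 behaved otherwise. It read 5.45, 6.52 and 7.34 in untreated gun1-101 and 8.73, 10.12 and 7.08 on lincomycin, with 6.32, 8.76 and 8.71 in Col-0 controls and 6.99, 8.35 and 8.88 in Col-0 on lincomycin. The third gun1-101 lincomycin array was below the third untreated one and 4 Col-0 arrays were higher than it by over 1 log2 unit. The difference was 2.21 with an SE of 0.83.

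AT3G62560 read 5.89, 5.97 and 5.28 in untreated gun1-101 and 7.75, 7.74 and 7.75 on lincomycin, with 6.20, 6.81 and 6.87 in Col-0 controls and 6.57, 6.51 and 7.36 in Col-0 on lincomycin. Its gun1-101 lincomycin arrays were nearly equal and above all others, and the difference was 2.04 (SE 0.26). AT1G66080 read 6.70, 7.01 and 6.90 in untreated gun1-101 and 8.02, 9.66 and 8.92 on lincomycin, with 6.21, 8.17 and 7.20 in Col-0 controls and 6.44, 6.09 and 8.02 in Col-0 on lincomycin. Its groups overlapped, because the lowest gun1-101 lincomycin array lay below the second Col-0 control. The difference was 1.99 (SE 0.56).

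AT3G21351 read 6.62, 6.21 and 6.40 in untreated gun1-101 and 8.54, 8.22 and 8.36 on lincomycin, with 5.93, 7.31 and 7.05 in Col-0 controls and 6.34, 6.54 and 7.11 in Col-0 on lincomycin. All gun1-101 lincomycin arrays were highest, and the difference was 1.96 (SE 0.31). AT1G72900 read 6.75, 7.54 and 8.05 in untreated gun1-101 and 9.61, 10.32 and 8.12 on lincomycin, with 7.35, 8.37 and 8.38 in Col-0 controls and 8.08, 8.66 and 8.42 in Col-0 on lincomycin. The third gun1-101 lincomycin array was only just above the third untreated one and below 4 of the Col-0 arrays, and the difference was 1.90 (SE 0.50). Of these 10 members, 7 had every gun1-101 lincomycin array above the other 9.

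**Figure D2:**
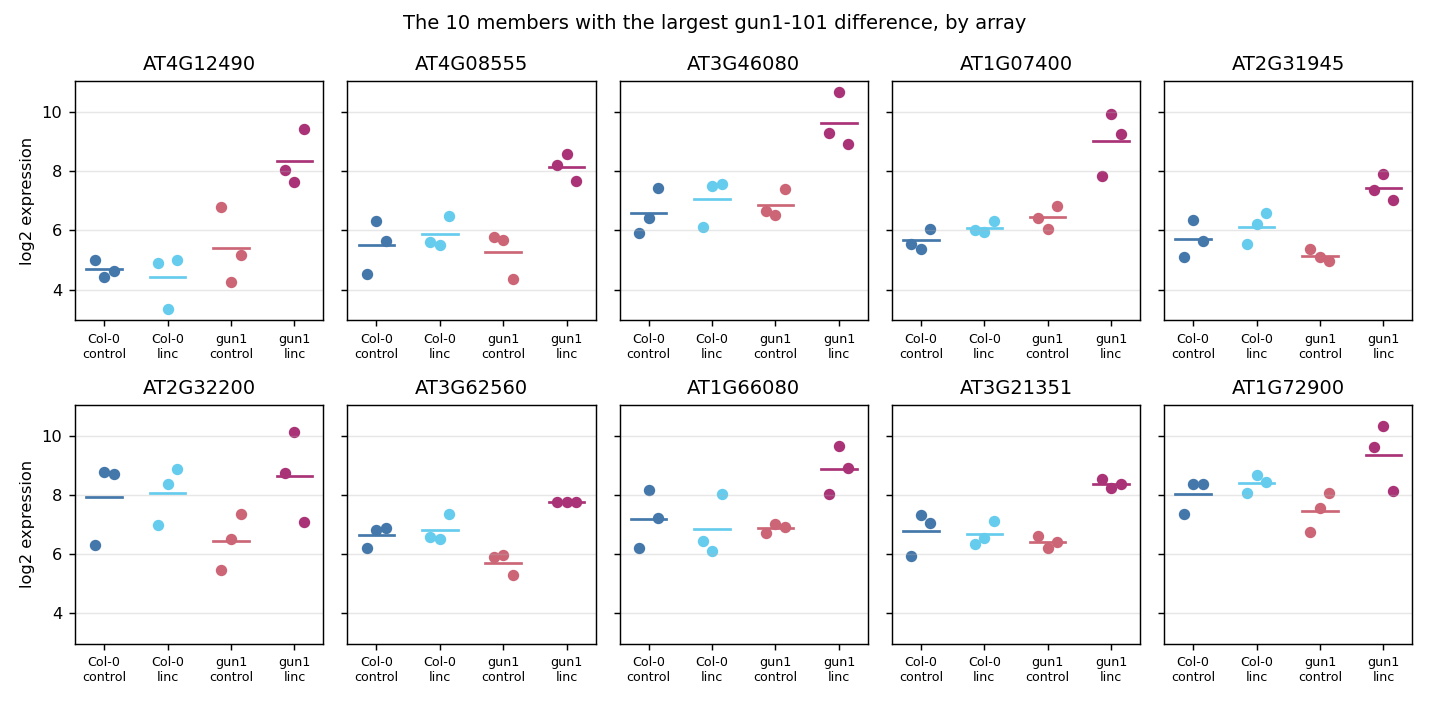
Log2 expression of the 10 members with the largest gun1-101 difference, 1 panel per gene and 1 point per array in the 4 groups. In AT4G08555 and AT3G46080 the gun1-101 lincomycin arrays lie at least 1 log2 unit above every other array, whereas in AT2G32200 and AT1G72900 the third gun1-101 lincomycin array lies among the Col-0 arrays.

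The next 15 members by the size of the gun1-101 difference were AT3G23170 (1.85), AT3G15760 (1.84), AT5G54585 (1.77), AT3G24420 (1.77), AT4G39675 (1.77), AT3G05937 (1.71), AT5G20370 (1.71), AT5G03230 (1.71), AT4G16000 (1.70), AT3G60520 (1.66), AT4G27652 (1.64), AT1G23150 (1.61), AT1G54575 (1.58), AT3G54363 (1.56) and AT4G36010 (1.54), each value a difference in log2 units. Col-0 differences of these 15 lay between -0.45 in AT4G27652 and 0.48 in AT4G39675. In AT3G23170, AT4G27652 and AT4G36010 the lowest gun1-101 lincomycin array lay more than 0.9 log2 units below the highest Col-0 array, while AT3G24420, AT3G15760 and AT5G20370 cleared all other arrays by at least 0.5.

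The thresholds divided closely similar genes. Just inside the limit on level were AT5G42060 (7.02), AT3G51750 (7.05) and AT2G24683 (7.07), and just outside it were AT2G17660 (6.93), AT2G04800 (6.90) and AT2G28720 (6.87). At the limit on the gun1-101 difference, AT5G43260 (1.202), AT3G16220 (1.203) and AT5G16980 (1.203) were inside, while AT5G46530 (1.196), AT3G07760 (1.195) and AT5G65495 (1.19) were outside. For the Col-0 difference, AT4G39675 (0.48), AT3G03270 (0.47) and AT3G46080 (0.47) were inside and AT1G23120 (0.50), AT3G07860 (0.52) and AT1G29640 (0.52) outside at the upper limit. At the lower limit AT1G78460 (-0.48), AT2G21130 (-0.47) and AT4G27652 (-0.45) were inside and AT5G64816 (-0.64), AT4G36430 (-0.64) and AT1G15010 (-0.67) outside. In all, 82 locus-tag genes met the other limits and had a Col-0 difference above the window, 57 were too low in level alone, and 7 had a Col-0 difference below the window.

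The members varied more within the Col-0 groups than other genes did. Their median SD over 3 arrays was 0.57 in Col-0 controls and 0.47 in Col-0 on lincomycin, beside 0.22 and 0.20 over all genes. In gun1-101 it was 0.21 in controls and 0.15 on lincomycin, beside 0.16 and 0.15. The range over the 6 Col-0 arrays had a median of 1.31 log2 units (0.72 over all genes), was over 1 in 91 members and under 0.6 in 3. Close agreement of the Col-0 group means was therefore not close agreement of the Col-0 arrays.

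The spread had a common form. Col-0 control replicate 1 was the lowest Col-0 control for 99 of the 112, where 37.5% of all genes had that order, and it lay a median of 0.91 log2 units below the mean of the other controls. Col-0 lincomycin replicate 3 was the highest of its group for 101 (36.4% of all genes), by a median of 0.75. Both held for 92 members (23.3% of all genes). AT2G22425, chosen here after its values were seen, showed the pattern plainly. It read 7.80, 9.73 and 9.56 in Col-0 controls, 8.30, 8.29 and 9.69 in Col-0 on lincomycin, 7.89, 7.93 and 8.26 in untreated gun1-101 and 9.50, 9.26 and 9.54 in gun1-101 on lincomycin. Both higher Col-0 controls were at the level of the mutant on lincomycin. AT1G78460 read 6.93, 8.41 and 8.95, then 7.21, 7.10 and 8.52, then 6.84, 7.17 and 7.72, then 8.55, 8.29 and 8.94, in the same order of groups. Here too a Col-0 control was the highest array of all.

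**Figure D3:**
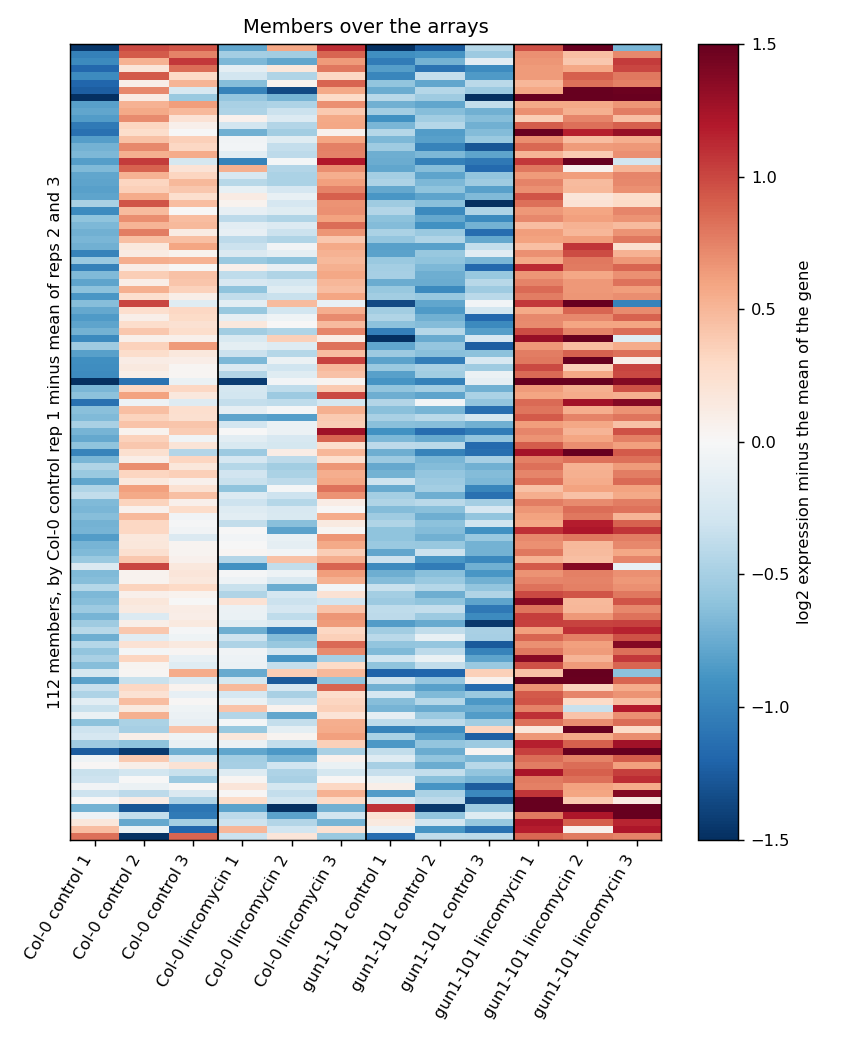
Log2 expression of the 112 members (rows, ordered by Col-0 control replicate 1 minus the mean of the other Col-0 controls) on the 12 arrays (columns), each gene relative to its own mean, with the colour scale limited to 1.5 log2 units either way. The gun1-101 lincomycin columns are high in nearly all rows, Col-0 control replicate 1 is low in most, and Col-0 control replicates 2 and 3 and Col-0 lincomycin replicate 3 are mostly above the gene mean.

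Without these 2 arrays the Col-0 difference was no longer near 0. Its median over the members moved from 0.04 to -0.49 log2 units, with extremes of -1.52 and 0.75, and 100 of 112 members had a negative value, while the median of all genes was 0.02 in both cases. Of the 112 members, 56 then still lay in the Col-0 window, 55 lay below it and 1 above. Leaving out Col-0 control replicate 1 alone gave a median of -0.25 with 91 members in the window, and leaving out Col-0 lincomycin replicate 3 alone gave -0.17 with 96. Leaving out any other Col-0 array left 96 to 98 members in the window with medians of 0.15 to 0.21. Leaving out a lowest control and a highest lincomycin array lowers the difference by construction, so this shift is only a description. The gun1-101 difference does not use these arrays. For 55 of the members the remaining 4 Col-0 arrays showed a level on lincomycin at least 0.5 log2 units below that of the controls. That is a difference of 2 arrays against 2 with no test.

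**Figure D4:**
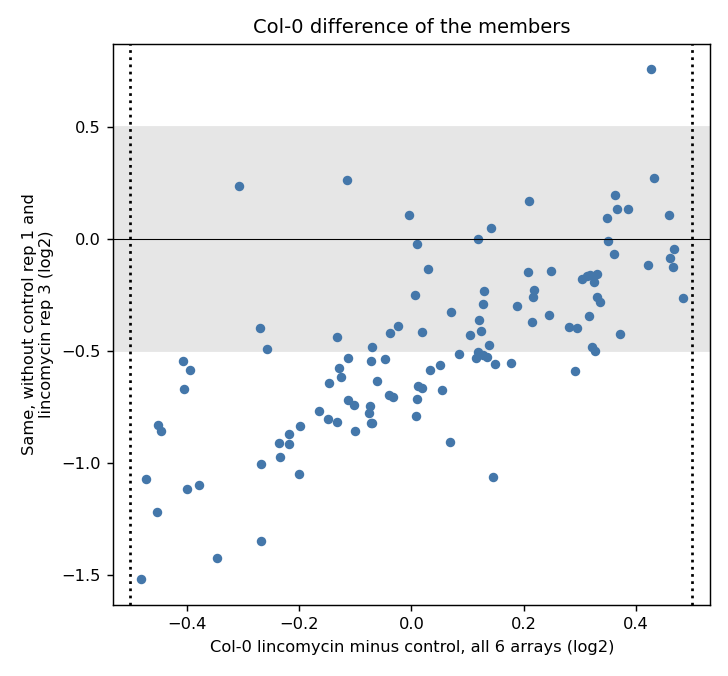
Col-0 difference between lincomycin and control for each of the 112 members (points), in log2 units on both axes. All 6 Col-0 arrays are used on the horizontal axis. The vertical axis uses the 4 that remain after leaving out the pair that stood apart in the members. The grey band is the Col-0 window. All points lie between -0.5 and 0.5 on the first axis by the rule, and 55 lie below -0.5 on the second.

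The gun1-101 difference was smaller in a fit that held the median of the leading probe sets. That median was 4.88 to 5.10 on the gun1-101 controls and 4.54 to 4.81 on the gun1-101 lincomycin arrays, with no overlap. Within gun1-101 its part and that of the drug therefore cannot be told apart. With that median as a covariate in the fit, a setting chosen after seeing the data, the members' median gun1-101 difference was 1.05 log2 units (0.68 to 3.11), 36 of 112 kept a value of at least 1.2 and 97 were called higher, where 8.95% of all genes were. The Col-0 median became 0.25, with 93 members in the window, and 3 members were called higher in Col-0 (8.79% of all genes). Under this covariate 26 of the 112 met the whole rule. The difference in gun1-101 was above 0 in every member with and without the covariate.

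The gun1-101 lincomycin arrays exceeded all other 9 for 58 of 112 members, where 4.94% of all genes showed this, and by a margin of at least 0.5 log2 units for 14 (0.411% of all genes). These shares are partly fixed by the rule. The 14 were AT3G46080, AT4G08555, AT1G70790, AT1G07400, AT3G21351, AT3G18320, AT4G12490, AT5G20370, AT5G47610, AT3G15760, AT2G42150, AT1G53560, AT3G09450 and AT3G24420, in falling order of the margin from 1.34 to 0.53. Not all of them were steady in Col-0, where the range over 6 arrays was 1.96 for AT4G08555, 1.66 for AT4G12490, 1.65 for AT3G46080 and 1.38 for AT3G21351, each above the members' median. In AT1G70790 and AT5G47610 it was under 0.6.

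AT1G70790, named after its values were seen, had the smallest Col-0 range of all members, 0.27 log2 units. It read 8.25, 8.31 and 8.26 in Col-0 controls, 8.40, 8.13 and 8.32 in Col-0 on lincomycin, 8.24, 8.23 and 7.99 in untreated gun1-101 and 9.81, 9.49 and 9.63 in gun1-101 on lincomycin. The 9 arrays without the combination of mutant and drug were nearly level, and the mutant on the drug stood 1.09 above the highest of them. Its gun1-101 difference was 1.49 (SE 0.13) and stayed at 1.49 with the array covariate, and its Col-0 difference was 0.01. AT5G47610 read 9.03, 9.33 and 8.78 in Col-0 controls, 9.36, 8.84 and 9.36 in Col-0 on lincomycin, 9.23, 8.71 and 8.64 in untreated gun1-101 and 10.12, 10.16 and 10.45 in gun1-101 on lincomycin. Again the mutant on the drug was apart from the rest, by 0.76, and the difference was 1.38 (SE 0.21).

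With group means taken again, the rule held in each of the 12 settings that left out 1 array for 26 members. It held also without the pair of Col-0 arrays for 14 of these, namely AT3G62560, AT1G54575, AT3G18320, AT3G18280, AT1G70790, AT2G21180, AT1G53560, AT3G14595, AT5G47610, AT5G04080, AT4G14746, AT2G16710, AT1G28540 and AT1G56300. AT3G14595 had the highest level of all members, with 11.60, 11.67 and 11.61 in gun1-101 on lincomycin, 10.19, 10.30 and 10.04 in untreated gun1-101, 10.27, 10.98 and 11.11 in Col-0 controls and 10.91, 10.85 and 11.54 in Col-0 on lincomycin. The mutant on the drug was the highest group, but Col-0 lincomycin replicate 3 came within 0.06 of it. AT1G78790 (MHF2, whose product takes part in the Fanconi anaemia pathway of DNA repair and meiotic recombination) read 9.41, 9.30 and 9.34 in gun1-101 on lincomycin, 8.11, 8.06 and 8.23 in untreated gun1-101, 7.76, 8.89 and 8.73 in Col-0 controls and 8.27, 8.30 and 9.22 in Col-0 on lincomycin. It had the highest values in the mutant on the drug too, by 0.08, and a difference of 1.21 (SE 0.29). AT1G78790 is not among the 26, since it met the rule in 10 of the 12 settings, and it failed without the pair of Col-0 arrays.

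A second kind of spread lay within gun1-101 on lincomycin. In 16 members the SD of these 3 arrays was over 0.5 log2 units, and replicate 2 was the highest for 11 of them, replicate 3 the lowest for 10, and both for 8. In AT5G17350 the gun1-101 lincomycin arrays read 8.83, 9.46 and 6.77 and the controls 6.41, 6.99 and 7.72. One lincomycin array was thus below 2 of the controls, and the difference of 1.31 had an SE of 0.61. Over all members the gun1-101 lincomycin arrays lay above the gun1-101 controls for 108 of 112 (21.7% of all genes). The rule used the same arrays and contrast, so this count is largely fixed by it. The 4 with an overlap were AT2G32200, AT5G17350, AT5G39580 and AT5G43620.

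Without lincomycin the members tended to be lower in gun1-101 than in Col-0. This contrast is not one of the rule, but its arrays entered the rule, so it is no independent evidence. The difference, gun1-101 minus Col-0, had a median of -0.57 log2 units (-1.49 to 0.78) and was below 0 in 105 of 112, beside a median of 0.02 over all genes. No member was called at an adjusted p under 0.05 by limma, where 0.0181% of all genes were, and 42 were lower at an unadjusted p under 0.05, where 6.54% of all genes were. The gun1-101 controls lay below all Col-0 controls for 21 members (7.16% of all genes). Without Col-0 control replicate 1 the median was -0.85, with 44 members called lower (3.78% of all genes), and without the pair of Col-0 arrays 73 were called lower (9.9%). Members above 0 in this contrast were AT1G07400 (0.78), AT4G12490 (0.73), AT3G09450 (0.31), AT3G46080 (0.26), AT5G20370 (0.17), AT2G42150 (0.14) and AT3G18320 (0.11), and all 7 are among the 14 with a margin of at least 0.5.

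On lincomycin the members were higher in gun1-101 than in Col-0 by a median of 0.76 log2 units (0.15 to 3.94), beside -0.05 over all genes. At an adjusted p under 0.05, 34 were called higher (5.12% of all genes), and without Col-0 lincomycin replicate 3 there were 63 (7.68%) and a median of 1.05. Without the pair of Col-0 arrays 92 were called (12.3%), and with the array covariate 28 (4.94%). The largest values were those of AT4G12490 (3.94, SE 0.63), AT1G07400 (2.91, SE 0.42) and AT3G46080 (2.56, SE 0.52). The smallest was that of AT5G04000 (0.15, SE 0.26). Against Col-0 control replicates 2 and 3, the mutant on lincomycin was higher by a median of 0.53, in 105 of 112 members. That comparison leaves out Col-0 control replicate 1, whose member mean (7.26) was at the level of the untreated mutant. This direction is largely fixed by the rule.

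The difference between the lincomycin responses of both genotypes had a median of 1.37 log2 units (0.76 to 3.20). It was called for 37 members, all higher, where 4.01% of all genes were called higher. Both contrasts in it are the rule's, so this count is a description. It varied widely with the arrays used, being 98 (12.1% of all genes) when Col-0 control replicate 1 was left out, 92 (9.63%) when Col-0 lincomycin replicate 3 was, and 101 (16%) when both were. It was 7 to 18 when any 1 of the other 10 arrays was left out, with 379 to 704 of all genes called in either direction. With the array covariate 13 members were called (2.08% of all genes), namely AT3G62560, AT3G21351, AT3G15760, AT1G70790, AT1G53560, AT3G15780, AT2G42150, AT5G19875, AT1G72800, AT1G56300, AT3G24100, AT3G16220 and AT5G43260. Of the 10 members with the largest gun1-101 difference, only AT3G62560 and AT3G21351 were among these.

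The rule was also applied to 2 replicate numbers and read in the arrays of the third, with no test, since each group then has 1 array. The arrays had been normalised together. Holding out replicate 1, 111 genes were chosen, 77 of them among the 112. Their held-out gun1-101 difference was above 0 in all 111 (45.8% of all genes) with a median of 1.27, but the held-out Col-0 difference was above the window for 53. With replicate 2 held out, 105 genes were chosen (61 shared), the gun1-101 difference was above 0 in all 105 (45.8% of all genes) with a median of 1.10, and the Col-0 difference was below the window for 64 with a median of -0.66. Holding out replicate 3 gave 113 genes (69 shared), a median gun1-101 difference of 1.10, and a value above 0 in 90 (46.9% of all genes). The whole rule was met again in the held-out arrays by 26, 14 and 29 genes. The share of all genes that met it there is not given here. The held-out gun1-101 difference was thus above 0 in most genes so chosen, a description from 1 array per group and no independent test. It was at least 1.2 in 67, 37 and 47 of them, beside 3.05%, 2.97% and 3.27% of all genes. The held-out Col-0 difference was in the window for 54 of 111, 32 of 105 and 75 of 113, beside 74.4%, 62.8% and 76.2% of all genes.

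In the genome the members were spread over all 5 chromosomes, with 25, 15, 33, 15 and 24 on chromosomes 1 to 5. Chromosome 3 held 29.5% of them and 20.5% of the locus-tag genes. Locus tags that do not end in 0, which were added between earlier gene models, made up 27 of the 112, beside 16.2% of all locus-tag genes. Among 130 measured protein-coding neighbours that are no members, the median gun1-101 difference was 0.08 and 4 had at least 1.2, which is 3.08% beside 2.16% of all genes. These were AT2G32190 (2.09) and AT2G32210 (1.36), on either side of AT2G32200, and AT5G64870 (1.96) and AT4G02360 (1.45). In Col-0 the last of them was higher by 2.01, AT2G32190 by 0.74, AT5G64870 by 0.69 and AT2G32210 by 0.10.

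The neighbours of AT2G32200 shared its order of arrays in gun1-101 on lincomycin but not in the Col-0 controls. AT2G32190 read 5.81, 5.44 and 6.41 in untreated gun1-101, 7.83, 9.08 and 7.02 on lincomycin, and 5.64, 6.09 and 6.46 in Col-0 controls. AT2G32210 read 4.81, 6.73 and 3.51 in gun1-101 on lincomycin and 3.46, 3.50 and 4.35 in Col-0 controls. In all 3 genes the second gun1-101 lincomycin array was the highest of its group and the third the lowest. In the Col-0 controls AT2G32200 was over 2 log2 units lower on the first array than on the others, while the arrays of each neighbour lay within 1 log2 unit. In untreated gun1-101 AT2G32190 was lowest on the second array, where AT2G32200 was not. Whether probes of 1 of these genes also match another was not tested.

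The only members next to each other were AT4G15990 and AT4G16000. AT4G15990 read 7.07, 6.87 and 7.26 in untreated gun1-101, 8.16, 8.48 and 8.41 on lincomycin, 6.47, 7.74 and 8.17 in Col-0 controls and 7.02, 7.71 and 8.53 in Col-0 on lincomycin. AT4G16000 read 6.48, 6.20 and 6.36 in untreated gun1-101, 7.95, 7.89 and 8.30 on lincomycin, 6.12, 7.49 and 8.15 in Col-0 controls and 7.16, 7.48 and 8.10 in Col-0 on lincomycin. Both differed within each Col-0 group by more than 0.9 log2 units from the lowest to the highest array, in the same order of arrays. Their gun1-101 differences were 1.28 and 1.70. AT3G15760 and AT3G15780 have 1 gene between them, AT3G15770, whose gun1-101 difference was 0.64 (1.84 and 1.37 in the members).

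Of 13 hand-written lists of stress genes and cell markers, which hold 205 loci of which 50 were measured, only the list of small heat shock proteins, molecular chaperones that bind unfolded proteins, held a member, AT1G07400. On that list 12 of 18 loci were measured. In gun1-101 on lincomycin 9 of the 12 were called higher and none lower (10.9% of all genes were higher), with a median difference of 2.09, and in Col-0 3 were higher, with a median of 0.42 (7.15% of all genes). Called in gun1-101 beside AT1G07400 were AT1G53540 (3.36), AT5G37670 (2.74), ATHSP22.0 (2.51), AT5G51440 (1.83) and the 4 genes left out by name, AT1G52560 (2.64), AT1G54050 (2.34), AT1G59860 (1.67) and AT2G19310 (1.195). Those called in Col-0 were AT5G51440 (1.68), AT5G37670 (1.39) and ATHSP22.0 (1.13). All 6 measured cold and dehydration genes of 19 were called higher in gun1-101, with a median of 1.90. They were KIN2 (3.03), COR15B (2.30), LTI30 (2.20), COR15A (1.60), KIN1 (1.18) and COR47 (1.14), proteins that accumulate in cold and drying cells. In Col-0 2 of the 6 were called higher, KIN1 (1.35) and KIN2 (1.13), and COR15B was called lower (-1.70).

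Of the oxidative stress list 2 of 4 measured loci were called higher, ZAT7 (3.43) and AT3G28580 (1.72), and of the chaperone and heat response list 3 of 7 were called higher, HSA32 (1.43), AT2G20560 (1.29) and Fes1A (1.13), and Hsp70-2 was lower (-0.90). On the list of protein folding in the endoplasmic reticulum, BZIP60 was called higher (0.80) and ATERDJ3B lower (-0.35). Of 4 measured genes of mitochondrial dysfunction, AT5G51440, also on the small heat shock list, was the 1 called. Among the markers PAP85 (1.86) and ICL (1.03) were called higher and LHCB4.3 lower (-0.73). ATG8E, the autophagy gene measured on the darkness list, was called higher, at 1.16. The measured loci of the proteasome (2), salicylate (1) and jasmonate (1) lists had no call in gun1-101. Since 111 of the 112 members stood on no list, these counts describe the surroundings of the members in the same tissue and not the members themselves.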

How the data were processed

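The values were log2 expression levels of 12 arrays, which the authors deposited after processing. The submitters' processing notes name RMA, a method that corrects background and scales arrays to a shared distribution, and version 1.3 of Affymetrix Expression Console. Levels are therefore relative. The table held 38408 probe sets, of which 16722 were paired with 1 gene, 759 with several and 20927 with none. Of 146 genes with several probe sets, the one with the highest mean was kept, which left 16550 genes. limma 3.58.1 in R 4.3.3 fitted 1 mean per group to all 12 arrays with no replicate block (8 residual degrees of freedom), and genes were called at a Benjamini-Hochberg adjusted p under 0.05 over all genes, two-sided. SE values are from this fit. The number of arrays limits the precision, and p-values compare a difference with the spread between arrays.

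The members and the gene lists were chosen with earlier results of these data known. Named by rule were the 25 members with the largest gun1-101 difference, members on a list, the 3 genes nearest each threshold on either side, and list genes called in gun1-101. Others were chosen after their values were seen. Groups by gene description and promoter motifs were not used here, and GUN1 itself is not analysed here. RefSeq (TAIR10.1) served for names and neighbours only, since the array annotation names no build. The fit was run on simulated data with independent noise for each gene and array. That run holds no array shifts shared by many genes, so it does not test the fit for them.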

Additional observations from a re-analysis of the deposited data

How the results depend on the processing

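With 3 arrays per group, thresholds and single arrays set the counts. The rule gave 226 genes at a gun1-101 difference of at least 1, 28 at 1.5, and 32 with the array covariate (26 of them members), a setting chosen after seeing the data. It gave 88 without both Col-0 arrays that stood apart in the members (56 of the 88 are members), and 99 to 135 without 1 array or 1 replicate number. Members called in gun1-101 numbered 84 to 109 without 1 array, with 1964 to 4289 of all 16550 genes called in either direction. For the difference of the responses, 20 members were called with all probe sets in the fit (667 of all genes). With the covariate there were 13 (527), with array weights 103 (5536) and without both arrays 101 (5378). Without 1 array there were 7 to 98 (379 to 3876), and the main fit called 1153 of all genes. Between genotypes without lincomycin, 58 were called with array weights (1998 of all genes) and 73 without both arrays (2854, with 9.9% of all genes lower). Without 1 array there were 0 to 44 (0 to 1054), and the main fit called 3 of all genes. On lincomycin these counts were 86, 92 and 17 to 63 (4385, 4088 and 748 to 2464 of all genes), beside 1585 in the main fit. The counts over all genes thus moved with those of the members. In each case the cause was not tested. Fits without arrays use fewer samples, and counts rose in some of them and fell in others. The fit of all probe sets adjusts over more tests. The members' median Col-0 difference ran from -0.25 to 0.21 without 1 array, and the gun1-101 median from 1.34 to 1.40. Arrays with the same replicate number did not all deviate together (correlations of -0.298 to 0.439). Arrays with different numbers gave -0.586 to 0.426. These overlapping ranges do not decide whether the numbers pair the samples. A replicate block gave 107 members called in gun1-101, 46 for the difference of the responses, 0 without lincomycin and 35 on lincomycin. Over all genes it called 3450, 1368, 1 and 1669. It moved no member count by over 1.5 times.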
